A study of Homo sapiens with 12 samples.

Results

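The SCGB3A2-negative (SCGB3A2-) cells sorted at day 36 were compared with the cells harvested at day 22, in cultures of the RUES2 line of human embryonic stem cells grown towards airway epithelium. The arrays were chosen by their titles, which gave 3 arrays of SCGB3A2- cells (A, B and C) and 2 of day 22 (A and C), 5 of the 12 arrays of the series, and all 23786 probe sets were used. Per the labels' protocols, every culture was taken first to definitive endoderm, next to anterior foregut endoderm and then to lung progenitors. The progenitors were enriched by a sort on CD47, which the day 15 samples carry in their label as CD47hi, and grown on in a medium with little Wnt activity. At day 36 the cells were divided into SCGB3A2- and SCGB3A2+ (3 arrays each), and the SCGB3A2+ arrays serve here only to test where both sorts differ. No genotype, added agent or sort is named for day 22, all samples come from 1 cell line, and how SCGB3A2 was detected for the sort is not given in the sources used here. The later day and the sort separate the same arrays, so their effects cannot be told apart. The labels do not say whether replicate letters stand for separate cultures, so the p-values reflect no more than the spread among these arrays, and that spread may be technical.

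Lung epithelium arises from a patch of foregut endoderm that turns on the transcription factor NKX2-1, beside neighbouring endoderm that forms stomach, pancreas, bile ducts and liver. NKX2-1 binds the promoters of surfactant and secretoglobin genes, and in mice foregut cells that lack it take on features of other endodermal organs. SCGB3A2 is a small secreted protein of airway epithelium whose gene is one of the known targets of NKX2-1.

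The promoters below are shown because their genes were among those that differed, and because sites bound by NKX2-1 commonly hold the letters CAAG, which are in capitals (CTTG where the match lies on the other strand). Each runs over the 250 bases before an annotated start in the direction of the gene, taken from RefSeq on GRCh38.p14. For SFTPB the start farthest downstream was taken, and windows of any other starts of these genes are not shown. NKX2-1 and SFTA3 have an annotated start in common, at chr14:36519557-36519806 on the minus strand, and their window held 5 matches, which 4.75% of all 35116 windows reached. The window of SFTPB, at chr2:85668200-85668449 on the minus strand, held 3 (reached by 27.7%), and that of SCGB3A2, at chr5:147878461-147878710 on the plus strand, held 4 (12.2%). At least 1 match was found in 80.9% of all windows, so the letters alone say nothing about binding.
NKX2-1 and SFTA3: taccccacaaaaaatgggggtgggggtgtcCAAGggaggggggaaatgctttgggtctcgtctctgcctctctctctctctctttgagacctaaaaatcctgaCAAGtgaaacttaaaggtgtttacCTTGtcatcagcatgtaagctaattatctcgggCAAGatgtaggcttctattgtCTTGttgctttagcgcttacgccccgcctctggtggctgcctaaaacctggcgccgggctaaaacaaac
SFTPB: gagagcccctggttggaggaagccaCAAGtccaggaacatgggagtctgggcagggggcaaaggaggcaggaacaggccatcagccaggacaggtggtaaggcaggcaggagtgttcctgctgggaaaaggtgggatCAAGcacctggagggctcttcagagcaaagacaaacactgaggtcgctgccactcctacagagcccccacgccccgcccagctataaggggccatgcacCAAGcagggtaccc
SCGB3A2: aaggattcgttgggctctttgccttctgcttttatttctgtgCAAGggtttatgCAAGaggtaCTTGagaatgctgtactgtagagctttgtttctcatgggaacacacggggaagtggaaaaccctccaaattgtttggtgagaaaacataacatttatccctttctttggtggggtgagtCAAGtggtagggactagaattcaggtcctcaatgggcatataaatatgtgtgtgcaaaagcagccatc

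Levels are RMA values on the log2 scale, in which 1 unit is a doubling, and differences are group means of SCGB3A2- minus day 22 ± limma's standard error (SE). A probe set passed when its p-value, adjusted for all probe sets by the method of Benjamini and Hochberg, was under 0.05. In these bulk samples a lower value can mean fewer cells with a transcript or less of it in each cell, which cannot be told apart. Day 22 had SCGB3A2 levels of 6.01 and 5.57, SCGB3A2- cells had 2.19, 2.70 and 2.06, and SCGB3A2+ cells had 8.89 to 9.39, so the gene of the sort followed the labels. The pan-epithelial gene EPCAM lay at 10.18 and 10.20 at day 22 and between 10.14 and 10.16 in SCGB3A2- cells. Levels correlated at 0.991 to 0.993 across probe sets among the SCGB3A2- arrays, at 0.987 between the day 22 arrays, and at 0.970 to 0.973 between both groups.

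In SCGB3A2- cells 892 probe sets (3.75% of those tested) were higher and 986 (4.15%) lower than in the day 22 cells. Of these, 342 (1.44%) were higher and 490 (2.06%) lower by 2-fold or more, while 85.0% of all probe sets lay within 0.5 of 0. Either way 7.90% of probe sets passed, and over all of them the median difference was -0.00245. Against SCGB3A2+ cells 22.9% passed (12.8% higher and 10.1% lower in SCGB3A2-), and SCGB3A2+ cells differed from the same day 22 arrays at 14.5% (6.75% higher and 7.71% lower). Calls that held under each of 11 other ways of fitting the data numbered 213 higher and 369 lower. Of these fits, 1 left out dim probe sets and kept 16116, and a call on a probe set left out there was judged by the other fits alone. The counts of higher and lower probe sets fell to 432 and 573 when day 22 A was dropped and to 376 and 559 when day 22 C was. Dropping SCGB3A2- B gave 509 and 649, and dropping SCGB3A2- C gave 500 and 642. The counts at 2-fold or more stayed between 269 and 326 higher and between 435 and 460 lower when any 1 of the 5 arrays was left out.

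**Figure D1:**
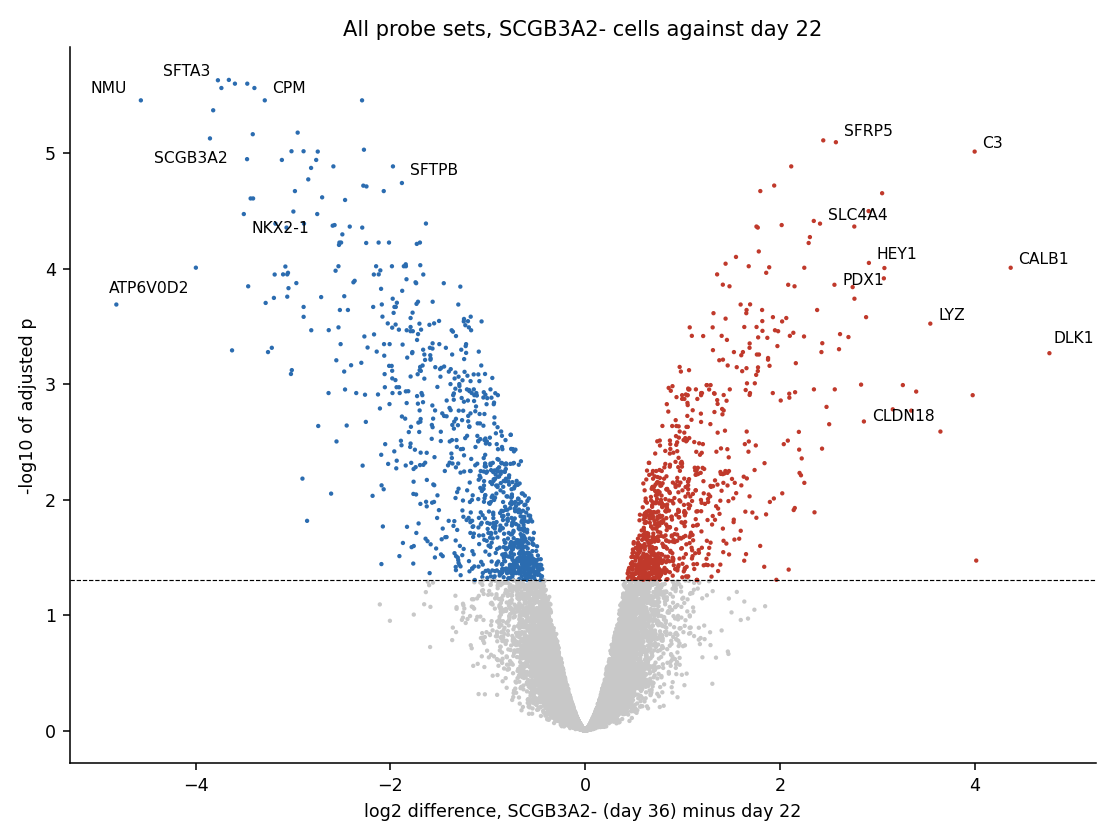
Each point is 1 of 23786 probe sets, with the log2 difference of SCGB3A2- cells from day 22 on the x axis and -log10 of limma's adjusted p on the y axis. Red points (892) are higher and blue points (986) lower past the dashed line at adjusted p 0.05, and the points farthest up the y axis are decreases such as SFTA3, NMU and CPM.

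The 12 largest decreases are given first and the 12 largest increases after them. NMU, which encodes the neuropeptide neuromedin U, had levels of 10.27 and 9.55 at day 22 and of 5.18, 5.80 and 5.06 in SCGB3A2- cells, a difference of -4.56 ± 0.26 (adjusted p = 3.5e-06). ATP6V0D2, a subunit of the proton pump, stood at 6.07 and 8.19 at day 22, where the arrays lay far apart, and at 1.63, 2.28 and 3.03 in SCGB3A2- cells (-4.81 ± 0.52, adjusted p = 0.000205). S1PR3, a receptor of sphingosine-1-phosphate, went from 6.24 and 5.99 to 2.65, 2.31 and 1.93 (-3.82 ± 0.22, adjusted p = 4.27e-06). In all 3 genes every SCGB3A2- array lay below both day 22 arrays, a separation that 20.7% of all probe sets showed in this direction and 21.9% in the other. ADGRF5, an adhesion receptor of alveolar epithelium and endothelium in which mouse mutants accumulate surfactant, was at 7.68 and 7.06 against 3.99, 3.93 and 4.003 (-3.40 ± 0.18, adjusted p = 2.74e-06). The other 8 of the 12 largest decreases were LUM, SFTA3, HSD3B1, ACOXL, SPOCK3, SCGB3A2, PLA2G7 and CYP2B7P, with differences from -3.997 to -3.41. CYP2B7P is a close copy of CYP2B6, so its signal is uncertain.

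DLK1, a transmembrane protein of fetal tissues related to Notch ligands, had levels of 4.53 and 3.88 at day 22 and 8.86, 9.39 and 8.66 in SCGB3A2- cells (4.77 ± 0.60, adjusted p = 0.00054). CALB1, a calcium-binding protein, rose from 5.36 and 5.20 to 8.96, 9.90 and 10.09 (4.37 ± 0.42, adjusted p = 9.84e-05). Both were also higher in SCGB3A2- than in SCGB3A2+ cells, DLK1 by 3.30 (adjusted p = 0.00096) and CALB1 by 3.50 (adjusted p = 5.24e-05). C3, the central component of complement, rose from 5.40 and 5.56 to 9.45, 9.61 and 9.38 (3.998 ± 0.27, adjusted p = 9.72e-06). Its SCGB3A2+ levels were 9.997, 8.85 and 9.40, and the difference between the sorts did not pass (0.07, adjusted p = 0.896). SST, the hormone somatostatin of gut and pancreatic endocrine cells, was at 4.57 and 5.06 and then 8.27, 9.58 and 8.65 (4.01 ± 1.02, adjusted p = 0.0337). The SST call was lost without any 1 of the 5 arrays, with adjusted p from 0.0579 without SCGB3A2- A to 0.165 without day 22 A. The other 8 of the 12 largest increases were MYBPC1, CP, LYZ, HP, MSMB, L1TD1, UCA1 and LCN15, with differences from 3.98 to 3.07, and HP has a close copy in HPR, so its signal is uncertain.

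**Figure D2:**
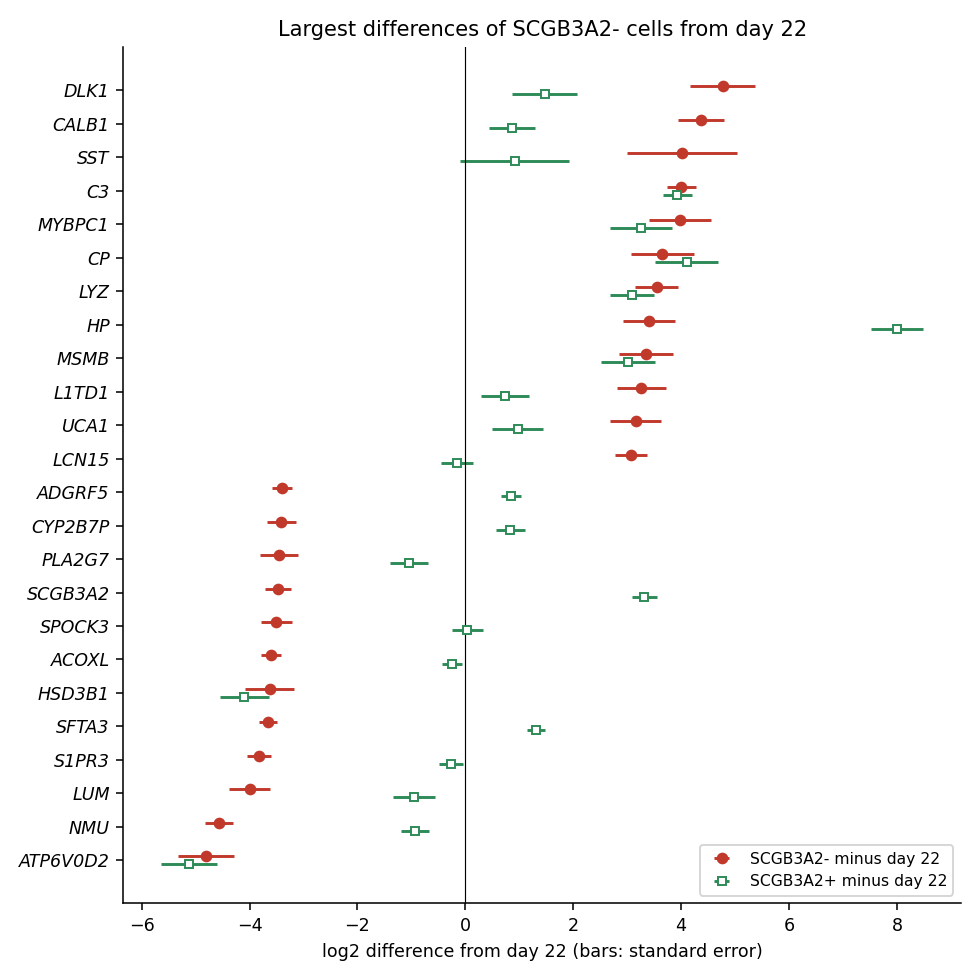
The 12 largest increases and 12 largest decreases of SCGB3A2- cells from day 22 (filled circles) are drawn as log2 differences, with bars for limma's standard error and the difference of SCGB3A2+ cells from the same day 22 arrays as open squares. C3, CP, LYZ and MYBPC1 lie at similar values in both sorts, while SFTA3 and ADGRF5 lie on opposite sides of 0.

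Of the 29 measured lung and foregut identity factors 4 rose and 6 fell, where 3.75% and 4.15% of all probe sets did, and their median difference was -0.0008. NKX2-1, the defining factor among them, stood at 7.02 and 6.75 at day 22 and at 4.18, 4.42 and 3.79 in SCGB3A2- cells (-2.75 ± 0.22, adjusted p = 3.37e-05). Its mean at day 0 was 2.97 and at day 15 it was 6.78, so the SCGB3A2- level lay between the undifferentiated and the progenitor cells. SFTA3, a lung-enriched gene, was at 8.93 and 8.45 and then at 5.04, 5.08 and 4.97 (-3.66 ± 0.17, adjusted p = 2.33e-06). The NKX2-1 and SFTA3 annotations overlap on the same strand, and whether their probe sets share probes is not given in the sources used here. CPM, a surface carboxypeptidase used to isolate NKX2-1+ progenitors, fell from 10.27 and 9.64 to 6.48, 6.76 and 6.75 (-3.29 ± 0.19, adjusted p = 3.5e-06). HOPX, a homeodomain cofactor that marks type 1 cells and their progenitors, fell from 7.54 and 7.07 to 4.62, 4.51 and 4.55 (-2.75 ± 0.19, adjusted p = 9.72e-06). All 4 genes were lower in SCGB3A2- than in SCGB3A2+ cells as well, with log2 differences of -2.54 for CPM, -3.50 for NKX2-1, -3.61 for HOPX and -4.96 for SFTA3 and adjusted p from 1.93e-08 for SFTA3 to 1.97e-06 for CPM.

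Against these stood SOX9, a transcription factor of the growing lung tips that pancreatic and bile duct progenitors also use. It rose from 6.68 and 6.86 to 8.58, 8.66 and 8.39 (1.78 ± 0.21, adjusted p = 0.000394), and exceeded SCGB3A2+ cells by 2.16 (adjusted p = 1.33e-05). FOXA2, a pioneer factor of all foregut endoderm, was at 6.58 and 6.54 at day 22 and between 6.37 and 6.51 in SCGB3A2- cells (-0.12 ± 0.11, adjusted p = 0.624). With 1 array left out the count of lower identity factors was lowest without day 22 A (4), and that of higher members without day 22 C (2).

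**Figure D3:**
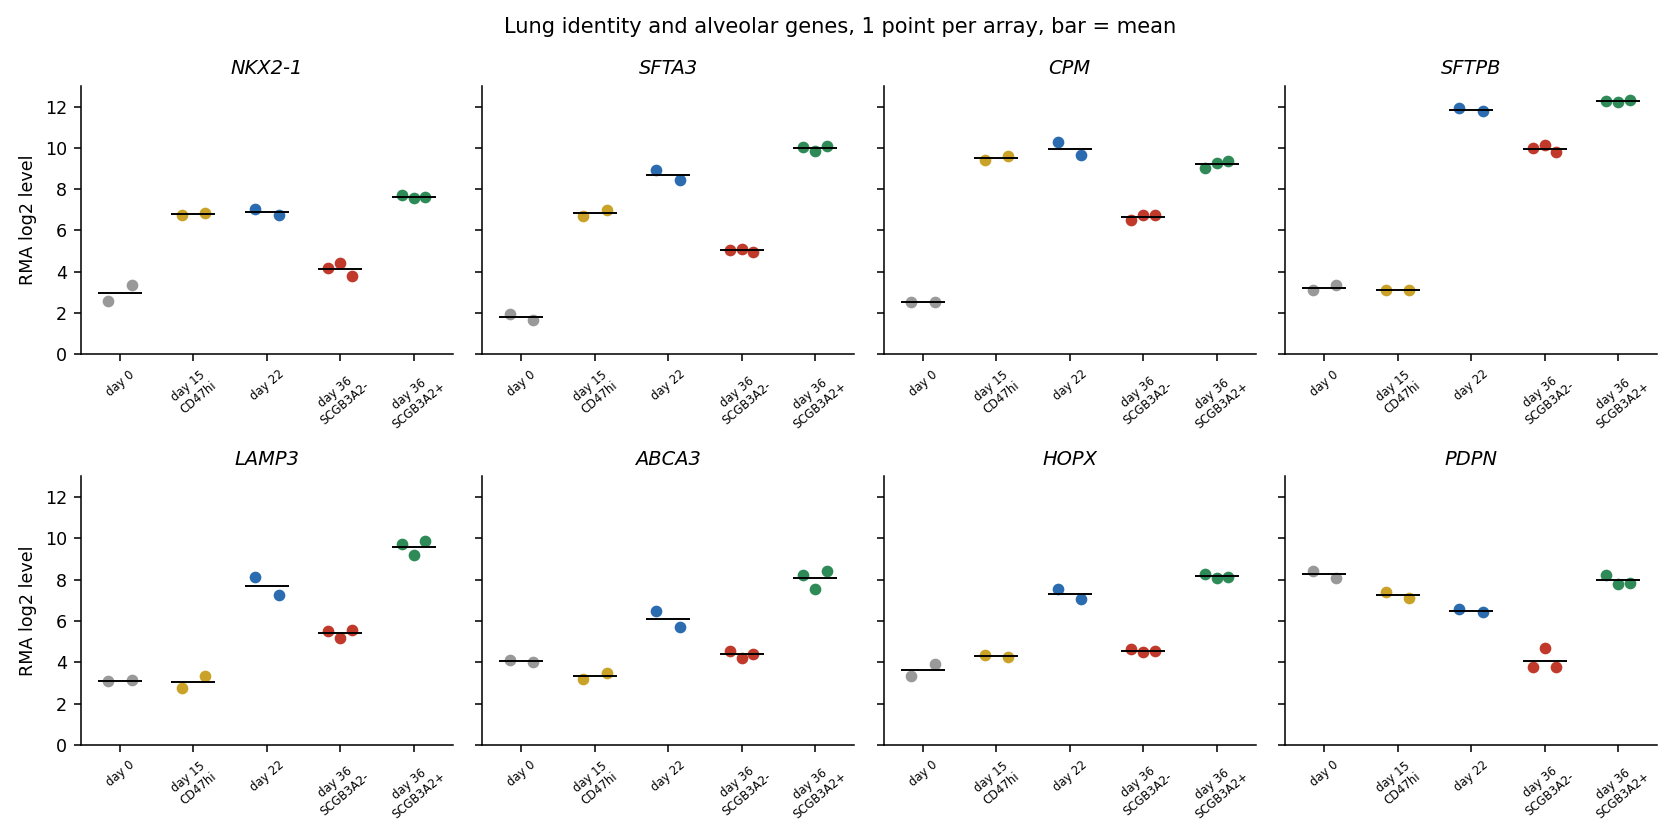
RMA log2 levels of 8 genes of lung identity and alveolar cells are plotted for every array (points) with the mean of each group (bars), from day 0 to both sorts of day 36. In each panel the 3 SCGB3A2- arrays lie below both day 22 arrays and below all 3 SCGB3A2+ arrays.

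Alveolar type 2 cells make and store surfactant, and 12 of 20 measured genes of their list were lower in SCGB3A2- cells than at day 22, with 1 higher and a median difference of -1.48. SFTPB, the surfactant protein required for breathing at birth, had levels of 11.93 and 11.77 at day 22 and 9.99, 10.12 and 9.79 in SCGB3A2- cells (-1.88 ± 0.14, adjusted p = 1.82e-05). Its level thus remained well above the day 15 mean of 3.11. LAMP3, a protein of the organelles that store surfactant, fell from 8.11 and 7.25 to 5.52, 5.17 and 5.54 (-2.27 ± 0.27, adjusted p = 0.000387). ABCA3, the transporter that loads lipid into those organelles, fell from 6.46 and 5.70 to 4.56, 4.20 and 4.40 (-1.69 ± 0.26, adjusted p = 0.00212). LPCAT1, an enzyme that makes the main surfactant lipid, fell from 9.41 and 9.19 to 7.22, 7.06 and 6.88 (-2.25 ± 0.17, adjusted p = 1.95e-05). The secreted Wnt inhibitor WIF1 was at 7.76 and 6.92 and then between 5.50 and 5.68 (-1.77 ± 0.22, adjusted p = 0.000528). Unlike the genes before it, WIF1 was higher in SCGB3A2- than in SCGB3A2+ cells, by 1.54 (adjusted p = 0.000207). SFTPC, the surfactant protein made by type 2 cells alone in adult lung, was at 7.66 and 6.85 and then 5.20, 4.60 and 5.77 (-2.07 ± 0.40, adjusted p = 0.00813). The SFTPC call was lost without day 22 A (adjusted p = 0.0935), and the list then had 6 lower members. Against SCGB3A2+ cells 15 of the 20 genes were lower, where 10.1% of all probe sets were.

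The alveolar type 1 list, of genes of the thin cells across which gas exchange takes place, had 10 of 16 measured members lower and 3 higher, with a median difference of -1.03. PDPN, a mucin-like surface protein of type 1 cells, was at 6.60 and 6.41 at day 22 and at 3.76, 4.70 and 3.75 in SCGB3A2- cells (-2.44 ± 0.27, adjusted p = 0.000228). GPRC5A, an orphan receptor induced by retinoic acid, fell from 8.88 and 8.42 to 6.76, 6.62 and 6.08 (-2.17 ± 0.26, adjusted p = 0.000371). EMP2, a tetraspan membrane protein, fell from 9.91 and 9.59 to 7.89, 8.14 and 7.69 (-1.84 ± 0.17, adjusted p = 9.18e-05). COL4A3, a collagen chain of the alveolar and kidney basement membranes, was at 3.47 and 3.63 and then between 2.09 and 2.22 (-1.38 ± 0.19, adjusted p = 0.000999). None of the 4 overlapped between the groups, a separation that 20.7% of all probe sets showed in this direction. Each was also lower than in SCGB3A2+ cells, with adjusted p from 6.5e-07 for EMP2 to 0.000501 for COL4A3. AQP5, a water channel of type 1 cells, salivary glands and stomach, was higher instead, at 4.72, 4.32 and 4.34 against 3.46 and 3.34 (1.06 ± 0.20, adjusted p = 0.00811), a call lost without day 22 C (adjusted p = 0.0733). Without day 22 A the list had 7 lower members, and its higher members numbered 0 without day 22 C and 1 without any other array.

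On the secretory airway list 0 of 29 measured genes rose (0 also at limma's unadjusted p under 0.05) and 3 fell, which were SCGB3A2 itself, CREB3L1 and WFDC2. CREB3L1, a transcription factor of secretory capacity, went from 6.94 and 7.42 to 5.29, 5.48 and 5.46 (-1.77 ± 0.20, adjusted p = 0.000241). WFDC2, an airway antiprotease, went from 9.45 and 9.12 to 8.53, 8.48 and 8.22 (-0.87 ± 0.18, adjusted p = 0.013), with adjusted p = 0.125 without day 22 A and 0.0544 without SCGB3A2- C. SCGB1A1, the secretoglobin of club cells, was at 6.01 and 5.69 at day 22 and at 4.54, 6.40 and 4.42 in SCGB3A2- cells (-0.74 ± 0.51, adjusted p = 0.471), and 1 array, SCGB3A2- B, lay above the others. Without that array the adjusted p was 0.0359. In SCGB3A2+ cells SCGB1A1 stood at 10.45 to 11.62, so that the SCGB3A2- mean differed by -6.04 (adjusted p = 4.27e-06). FOXJ1, the master factor of motile cilia, stayed between 4.37 and 4.90 in SCGB3A2- cells against 4.39 and 4.63 (0.04 ± 0.29, adjusted p = 0.97). On the ciliated cell list 1 of 26 genes passed (6 higher and 1 lower at an unadjusted p under 0.05), which was RFX3 (0.96 ± 0.20, adjusted p = 0.0142), and that call was lost without day 22 C (adjusted p = 0.158). A fit of only the 5 arrays compared gave 7 higher ciliated genes. Of 16 basal and squamous genes only PDPN passed.

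The neuroendocrine list had 0 higher (1 at an unadjusted p under 0.05) and 5 lower genes of 18, with a median difference of -0.16. NCAM1, a cell adhesion molecule, was at 5.24 and 4.88 at day 22 and 2.79, 3.44 and 2.17 in SCGB3A2- cells (-2.26 ± 0.32, adjusted p = 0.00124). SCG5, a chaperone of secretory granules, fell from 4.35 and 4.15 to 2.50, 2.43 and 2.30 (-1.83 ± 0.18, adjusted p = 0.000124). UCHL1, a ubiquitin hydrolase of neurons and neuroendocrine cells, fell from 8.92 and 9.06 to 6.77, 7.26 and 7.49 (-1.82 ± 0.26, adjusted p = 0.00115). The other 2, PTN and PCSK1N, lost their calls when 1 array was left out, both without day 22 A (adjusted p = 0.0769 and 0.135). Lower members numbered 3 without day 22 A, day 22 C or SCGB3A2- A.

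On the list of endoderm and gut transcription factors 8 of 28 measured genes rose and 0 fell (1 at an unadjusted p under 0.05), although the median difference was 0.06. PDX1, the factor that defines pancreas, duodenum and the distal stomach, rose from 3.60 and 3.64 to 6.46, 6.15 and 5.92 (2.56 ± 0.26, adjusted p = 0.000138). Its means at day 0 and day 15 were 3.42 and 3.27, so the day 22 level was not shown to be above background, and SCGB3A2- cells exceeded SCGB3A2+ cells by 1.71 (adjusted p = 0.000288). ONECUT1 and ONECUT2 are related factors of liver, bile duct and pancreas. ONECUT2 rose from 5.67 and 6.49 to 7.58, 8.11 and 8.18 (1.88 ± 0.24, adjusted p = 0.000614) and ONECUT1 from 8.61 and 8.19 to 9.94, 9.88 and 9.68 (1.43 ± 0.23, adjusted p = 0.00253). Both were higher than in SCGB3A2+ cells, by 3.14 and 1.78 (adjusted p = 2.47e-06 and 8.76e-05). PROX1, a factor of liver and pancreas progenitors, was at 6.81 and 6.34 and then at 7.72, 7.92 and 7.65 (1.19 ± 0.24, adjusted p = 0.0101), a call lost without day 22 C (adjusted p = 0.114). MLXIPL, a glucose-responsive factor of liver, rose by 1.39 ± 0.25 (adjusted p = 0.00576), and its adjusted p was 0.0547 without day 22 A. CDX2, the factor of the intestine, was at 4.95 and 6.83 at day 22 and between 5.74 and 6.25 in SCGB3A2- cells (0.14 ± 0.51, adjusted p = 0.928). Higher members of this list numbered 4 without day 22 A and 5 without SCGB3A2- B or C.

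Of 22 measured stomach genes 7 rose and 2 fell, with a median difference of 0.29. CLDN18, a tight junction protein with one isoform in stomach and one in lung, rose from 5.65 and 4.74 to 8.24, 7.59 and 8.34 (2.86 ± 0.44, adjusted p = 0.00211). TFF2, a trefoil peptide of gastric mucus, rose from 5.08 and 5.30 to 7.77, 7.48 and 6.99 (2.22 ± 0.38, adjusted p = 0.0044). For both genes the difference from SCGB3A2+ cells did not pass (adjusted p = 0.977 for CLDN18 and 0.625 for TFF2). ATP4B, the acid pump subunit of parietal cells, was lower, at 2.12, 2.11 and 1.81 against 4.45 and 4.13 (-2.28 ± 0.17, adjusted p = 1.92e-05). The higher members included SST and AQP5, whose calls depended on single arrays, and numbered 3 without day 22 A or day 22 C and 4 without SCGB3A2- A or C.

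On the pancreas and bile duct list 6 of 19 genes rose and 2 fell, with a median difference of 0.30. CFTR, the chloride and bicarbonate channel of ducts and airways, rose from 6.55 and 7.54 to 8.72, 8.87 and 8.79 (1.75 ± 0.29, adjusted p = 0.00339), and exceeded SCGB3A2+ cells by 2.16 (adjusted p = 0.000128). ANXA4, a calcium-dependent membrane-binding protein, rose from 9.47 and 9.73 to 10.71, 10.60 and 10.65 (1.06 ± 0.15, adjusted p = 0.00109). KRT7, a keratin of ducts and of lung epithelium, fell from 6.95 and 6.44 to 5.19, 4.81 and 4.54 (-1.85 ± 0.28, adjusted p = 0.00199). The higher members numbered 4 without day 22 C or SCGB3A2- B.

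**Figure D4:**
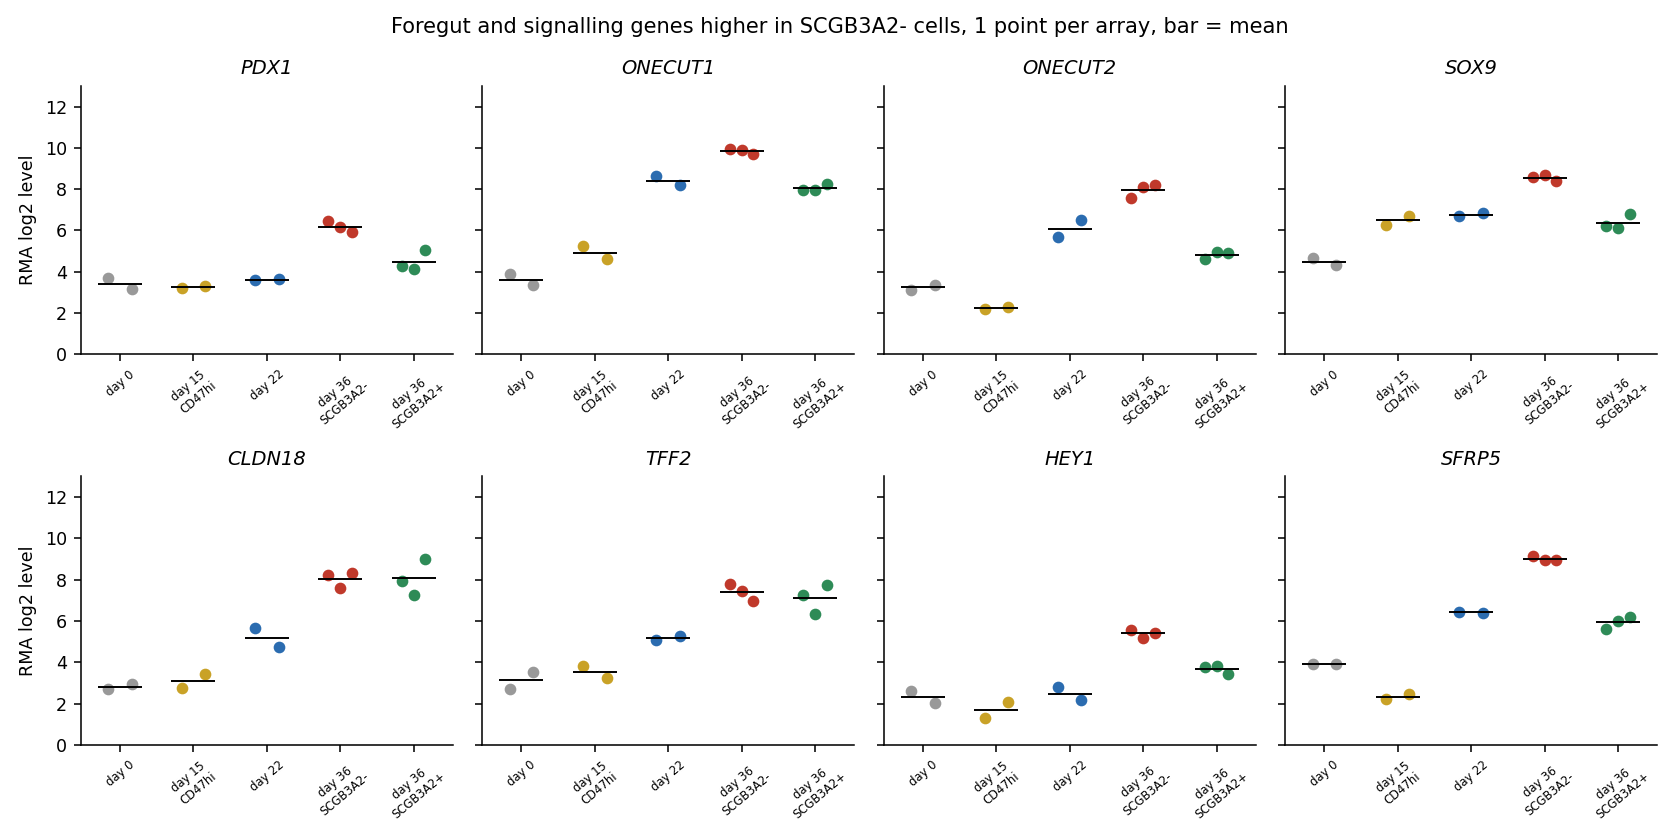
RMA log2 levels of 8 foregut and signalling genes are plotted for every array (points) with the mean of each group (bars). In each panel the 3 SCGB3A2- arrays lie above both day 22 arrays, and for PDX1, ONECUT1, ONECUT2, SOX9, HEY1 and SFRP5 also above all 3 SCGB3A2+ arrays.

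Among liver genes, those of some plasma proteins rose while the 2 most abundant fetal ones did not pass. ALB, the main plasma protein, was at 11.06 and 11.20 at day 22 and 10.54, 11.40 and 11.54 in SCGB3A2- cells (0.03 ± 0.26, adjusted p = 0.973). AFP, its fetal counterpart in liver and yolk sac, was at 11.43 and 11.37 and then 11.13, 11.45 and 11.51 (-0.04 ± 0.41, adjusted p = 0.978). For both genes the day 22 arrays lay within the range of the SCGB3A2- arrays. Against SCGB3A2+ cells AFP was 1.42 higher (adjusted p = 0.0161, lost under 3 alternatives), while ALB did not pass (adjusted p = 0.675). Of 49 measured plasma protein genes 12 rose and 2 fell, with a median difference of 0.22. Against SCGB3A2+ cells 26 of the 49 were higher and 4 lower, where 12.8% and 10.1% of all probe sets were. Besides C3, the coagulation factor F5 rose from 6.02 and 5.10 to 8.20, 7.81 and 7.73 (2.35 ± 0.33, adjusted p = 0.00111) and was 2.99 above SCGB3A2+ cells (adjusted p = 2.81e-05). SERPINA3, an acute-phase antiprotease, rose from 7.06 and 6.99 to 8.91, 9.28 and 9.32 (2.149 ± 0.22, adjusted p = 0.000142). The thyroxine carrier SERPINA7 was lower, at 1.499, 1.46 and 1.62 against 3.65 and 2.96 (-1.78 ± 0.22, adjusted p = 0.000539). The count of higher members was lowest without day 22 A (7) and SCGB3A2- B or C (8 each) and highest without SCGB3A2- A (14).

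Genes of liver metabolism split, with 3 higher and 7 lower of 43 and a median of -0.18. The bile salt pump ABCB11 fell from 5.68 and 5.03 to 2.54, 2.88 and 2.89 (-2.59 ± 0.18, adjusted p = 1.31e-05). ABCC2, which exports conjugated bilirubin into bile, fell from 5.62 and 5.39 to 2.80, 2.74 and 3.20 (-2.59 ± 0.22, adjusted p = 4.25e-05), and the urea cycle enzyme ARG1 from 6.40 and 5.51 to 3.64, 4.11 and 3.93 (-2.07 ± 0.25, adjusted p = 0.000451). NR0B2, a nuclear receptor that restrains bile acid synthesis, rose from 5.16 and 5.17 to 7.02, 7.15 and 7.17 (1.95 ± 0.23, adjusted p = 0.000342), and exceeded SCGB3A2+ cells by 2.41 (adjusted p = 9.76e-06). The alcohol dehydrogenase ADH1C rose from 4.15 and 4.90 to 6.64, 7.13 and 7.11 (2.43 ± 0.30, adjusted p = 0.000442). Lower members numbered 4 without day 22 C, and higher members 2 without day 22 A or SCGB3A2- B or C.

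The intestinal list had 1 higher and 8 lower genes of 44, with a median of -0.22. REG4, a lectin of intestinal endocrine and goblet cells, was at 5.12 and 6.53 at day 22 and at 2.29, 2.84 and 3.27 in SCGB3A2- cells (-3.02 ± 0.40, adjusted p = 0.000817). MUC2, the goblet cell mucin, was at 3.44 and 3.71 and then 2.60, 2.51 and 2.86 (-0.92 ± 0.15, adjusted p = 0.00266). DPP4, a brush border peptidase, was at 8.002 and 9.26 and then 6.76, 7.19 and 7.31 (-1.54 ± 0.38, adjusted p = 0.0316), a call lost without day 22 C (adjusted p = 0.297) and without any of the 3 SCGB3A2- arrays (adjusted p from 0.0594 to 0.0985). OLFM4, a stem cell gene of the crypt, was higher by 2.14 ± 0.44 (adjusted p = 0.0123), but not without day 22 A (adjusted p = 0.122). Counts for this list depended on the day 22 arrays, and lower members numbered 9 when day 22 A was dropped and 2 when day 22 C was. They numbered 3 if SCGB3A2- A or B was dropped, and 4 if SCGB3A2- C was or if only the 5 arrays compared were fitted.

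Channels and transporters of epithelial fluid changed in both directions, 5 higher and 3 lower of 25 with a median of 0.12. SLC4A4, which brings bicarbonate into duct cells, rose from 7.84 and 7.21 to 10.20, 9.78 and 9.83 (2.41 ± 0.20, adjusted p = 4.08e-05), and exceeded SCGB3A2+ cells by 1.72 (adjusted p = 4.4e-05). SLC26A9, a chloride channel of stomach and airway, rose from 3.76 and 3.50 to 6.67, 5.78 and 5.72 (2.43 ± 0.30, adjusted p = 0.000528). AQP4, a water channel, fell from 8.09 and 7.34 to 5.15, 5.02 and 5.07 (-2.63 ± 0.31, adjusted p = 0.000341). SCNN1A, a subunit of the sodium channel that clears fluid from airspaces, fell from 8.76 and 8.44 to 7.68, 7.41 and 7.18 (-1.18 ± 0.18, adjusted p = 0.00179). All 3 SCGB3A2- arrays lay above both day 22 arrays for the first pair and below them for the second, as in 21.9% and 20.7% of all probe sets.

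Signalling genes were ordered by pathway. In the BMP and TGF-beta list 4 of 22 rose and 5 fell, with a median of -0.17. ID1 and ID3, immediate targets of BMP, rose from 6.95 and 7.04 to 8.71, 8.51 and 8.62 (1.62 ± 0.20, adjusted p = 0.000528) and from 5.20 and 5.11 to 6.88, 6.73 and 6.91 (1.69 ± 0.21, adjusted p = 0.000485). The ligand TGFB2 fell from 8.13 and 7.71 to 5.60, 5.77 and 5.28 (-2.37 ± 0.24, adjusted p = 0.000128). The matrix protein CCN2, a target of TGF-beta and YAP, fell from 10.20 and 9.81 to 8.36, 8.43 and 8.13 (-1.70 ± 0.22, adjusted p = 0.000757). BMP4, a ligand, was lower at 5.26, 5.34 and 5.21 against 6.27 and 6.66 (-1.20 ± 0.26, adjusted p = 0.0144), but its adjusted p was 0.139 without day 22 C. CHRDL1, a BMP antagonist, fell by 1.25 on the log2 scale (SE 0.19, adjusted p = 0.0017). Without day 22 A the list had 2 higher members, and without day 22 C 3 lower ones.

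Of 20 Notch genes 2 rose and 0 fell (6 and 0 at an unadjusted p under 0.05), with a median of 0.17. HEY1, a repressor induced by Notch, rose from 2.81 and 2.16 to 5.58, 5.18 and 5.43 (2.91 ± 0.27, adjusted p = 8.93e-05), and NRARP, a feedback inhibitor, from 3.48 and 3.55 to 4.36, 4.36 and 4.80 (0.99 ± 0.18, adjusted p = 0.00518). Both exceeded SCGB3A2+ cells, by 1.72 and 1.39 (adjusted p = 0.000383 and 8.35e-05). HEY2 was at 2.70 and 3.07 and then 2.65, 4.88 and 5.53 (1.47 ± 0.64, adjusted p = 0.216), with SCGB3A2- A at the day 22 level. Without that array its adjusted p was 0.00386, and Notch calls numbered 3.

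The Wnt list had 2 higher and 3 lower genes of 22, with a median of -0.08. SFRP5, a secreted Wnt inhibitor of foregut endoderm, rose from 6.46 and 6.40 to 9.12, 8.94 and 8.95 (2.57 ± 0.17, adjusted p = 8.06e-06) and exceeded SCGB3A2+ cells by 3.08 (adjusted p = 2.75e-07). CCND1, the cyclin of G1, rose from 9.04 and 8.94 to 10.14, 9.95 and 9.85 (0.99 ± 0.14, adjusted p = 0.00125). LEF1, a Wnt effector and target, was at 2.33 and 2.95 against 1.78 to 1.80 (-0.85 ± 0.22, adjusted p = 0.0362), and lost its call without day 22 C (0.317) or any SCGB3A2- array (0.0902 to 0.0953). With WIF1 and BMP4, LEF1 made up the lower members, which numbered 1 without day 22 C. On the FGF and ERK feedback list 4 of 18 rose and 0 fell (7 and 3 at an unadjusted p under 0.05), among them the feedback inhibitor SPRY1, from 5.76 and 5.83 to 6.72, 6.66 and 6.62 (0.87 ± 0.15, adjusted p = 0.00499). The count was 2 without day 22 A or SCGB3A2- B. In the Hedgehog list 0 of 14 genes passed, with 3 higher and 1 lower at an unadjusted p under 0.05.

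Matrix and adhesion genes were lower more often than higher, 9 against 3 of 32, with a median of -0.34. TIMP3, an inhibitor of matrix proteases, fell from 7.11 and 7.69 to 4.46, 5.17 and 4.88 (-2.56 ± 0.25, adjusted p = 0.000104). LAMA2, a laminin chain, fell from 5.93 and 4.90 to 2.21, 2.86 and 2.49 (-2.89 ± 0.31, adjusted p = 0.000215). ITGB6, the epithelial integrin chain that activates latent TGF-beta, fell from 7.36 and 7.23 to 5.89, 5.55 and 5.66 (-1.60 ± 0.20, adjusted p = 0.000485). Their differences from SCGB3A2+ cells were -1.71, -1.90 and -1.29 (adjusted p = 0.00022, 0.000505 and 0.000291). Lower members numbered 5 without day 22 A or SCGB3A2- A and 6 without SCGB3A2- B or C, and higher members 1 without day 22 A.

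Lysosomal genes had 9 of 27 members lower and 1 higher, with a median of -0.45. LAMP1, the main membrane protein of lysosomes, went from 8.89 and 8.65 to 7.60, 7.60 and 7.58 (-1.18 ± 0.13, adjusted p = 0.000261). CTSA, a lysosomal carboxypeptidase, went from 9.22 and 9.40 to 7.99, 8.12 and 8.08 (-1.24 ± 0.14, adjusted p = 0.000273), and the proton pump subunit ATP6V0D1 from 8.01 and 8.19 to 7.14, 7.25 and 7.32 (-0.86 ± 0.14, adjusted p = 0.00257). Lower members numbered 5 without day 22 A or day 22 C.

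Immediate early and stress genes split between 5 higher and 8 lower of 24, with a median of -0.01. FOS and FOSB, subunits of AP-1, rose from 6.28 and 6.55 to 8.14, 8.29 and 7.90 (1.69 ± 0.18, adjusted p = 0.000204) and from 4.82 and 4.87 to 6.51, 6.84 and 6.46 (1.76 ± 0.20, adjusted p = 0.00032). CCN1, a matrix protein induced by serum and YAP, fell from 9.42 and 9.01 to 7.25, 7.29 and 7.19 (-1.97 ± 0.14, adjusted p = 1.31e-05). ATF3 fell from 6.18 and 6.22 to 4.52, 4.42 and 4.58 (-1.69 ± 0.16, adjusted p = 9.35e-05). JUN, also a subunit of AP-1, passed as lower, as did the early genes DUSP1, ZFP36 and NR4A1, while IER2 and IER3 passed as higher. Those calls changed under 5 alternatives for JUN and DUSP1, 6 for ZFP36 and NR4A1, 1 for IER2 and 4 for IER3. Sorting can induce immediate early genes, and day 22 has no sort named. SCGB3A2+ cells, which were sorted too, had FOS at 8.13, 8.21 and 8.06, above day 22. Their ATF3 levels were 4.29, 4.86 and 4.55, below day 22, so FOS and ATF3 went in opposite directions in those cells as well. The part of handling in these values was not tested. Lower members numbered 3 without day 22 C, 4 without day 22 A, SCGB3A2- A or C, and 5 without SCGB3A2- B, and higher members 3 without day 22 C.

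In defence genes the split was 5 higher and 3 lower of 32, with a median of -0.0031. LYZ, the antibacterial lysozyme, rose from 5.73 and 4.95 to 9.42, 8.45 and 8.79 (3.54 ± 0.40, adjusted p = 0.0003). DEFB1, an epithelial defensin, rose from 4.23 and 4.33 to 5.83, 5.35 and 5.48 (1.27 ± 0.18, adjusted p = 0.00111). CD55, which shields cells from complement, fell from 11.04 and 10.80 to 8.64, 8.63 and 8.62 (-2.29 ± 0.13, adjusted p = 3.5e-06). Between the sorts LYZ did not pass (adjusted p = 0.443). DEFB1 was 1.58 above SCGB3A2+ cells (adjusted p = 3.37e-05), and CD55 differed from them by -2.42 (adjusted p = 2.75e-07).

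Drug and steroid enzymes had 3 higher and 5 lower of 41 (median -0.16). CYP1A1 and CYP1B1, targets of the aryl hydrocarbon receptor, fell from 8.28 and 8.46 to 5.64, 5.27 and 4.96 (-3.08 ± 0.29, adjusted p = 9.6e-05) and from 6.78 and 7.14 to 3.75, 4.26 and 3.53 (-3.11 ± 0.22, adjusted p = 1.15e-05). In SCGB3A2+ cells CYP1A1 was also low, at 5.46, 4.97 and 5.99, while CYP1B1 was at 7.68, 7.73 and 8.05. MAOB, a monoamine oxidase, rose from 3.05 and 3.14 to 4.63, 5.02 and 4.92 (1.76 ± 0.15, adjusted p = 4.33e-05). Lower members numbered 3 without day 22 A, and higher members 2 when any of the 5 arrays but SCGB3A2- C was dropped.

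Most proliferation genes did not pass against day 22. MKI67, a marker of cycling cells, was at 7.25 and 7.31 at day 22 and at 7.56, 7.67 and 7.79 in SCGB3A2- cells (0.40 ± 0.21, adjusted p = 0.33). Of 29 genes of DNA replication and G1/S 5 passed as higher and 0 as lower, with a median of 0.49, and at limma's unadjusted p under 0.05 there were 21 and 0. Of 32 genes of mitosis 0 were higher and 1 lower (3 and 1 unadjusted), with a median of 0.38. The helicase subunit MCM3 was at 6.81 and 6.90 and then 7.52, 7.57 and 7.63 (0.72 ± 0.19, adjusted p = 0.0384). Its call was lost without any 1 of the 5 arrays (adjusted p from 0.0817 to 0.179), and the list had at most 1 call in those fits and with the replicate block. A fit of only the 5 arrays compared gave 11 higher genes on that list and 3 on the mitosis list, and array weights gave 8 on the former. Against SCGB3A2+ cells the same tests gave 25 of 29 and 25 of 32 higher, where 12.8% of all probe sets were, and MKI67 was 0.93 higher (adjusted p = 0.0041).

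Pluripotency genes had 3 of 18 members higher and 0 lower (5 and 2 at an unadjusted p under 0.05), with a median of -0.11. POU5F1 lay between 1.35 and 1.80 on all 5 arrays, near the lower end of the scale (-0.14 ± 0.22, adjusted p = 0.806). LEFTY1, a Nodal inhibitor, was at 2.82 and 3.61 and then 5.02, 5.47 and 5.56 (2.14 ± 0.25, adjusted p = 0.000359). L1TD1, an RNA-binding protein of stem cells, was at 3.12 and 4.23 and then 6.99, 6.64 and 7.18 (3.26 ± 0.45, adjusted p = 0.00102). The third, SALL4, also a gene of fetal liver, was 1.11 ± 0.26 higher (adjusted p = 0.0225) and lost its call without day 22 A (0.158), day 22 C (0.0661), SCGB3A2- B (0.0692) or SCGB3A2- C (0.0723). Cholesterol synthesis had 5 higher genes of 23 and 0 lower (11 and 1 at an unadjusted p under 0.05), with a median of 0.24. The lowest adjusted p there was that of HMGCS1, from 7.29 and 7.84 to 8.39, 8.55 and 8.54 (0.93 ± 0.16, adjusted p = 0.00471), and without day 22 A its adjusted p was 0.0523. Those calls numbered 0 when day 22 A was dropped, 1 when day 22 C was, 2 when SCGB3A2- B or C was and 3 when SCGB3A2- A was.

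Lists of other cell types are given last. The endothelial list had 0 of 16 genes past the threshold (1 higher and 4 lower at an unadjusted p under 0.05) and median levels of 2.47 at day 22 and 2.28 in SCGB3A2- cells, and the mesothelial list had 0 of 10 (1 and 1). Of 18 blood and immune genes LYZ was higher and RUNX1 lower, with median levels of 2.50 and 2.57. Among 32 mesenchymal genes 0 were higher (1 at an unadjusted p under 0.05) and 3 lower, with median levels of 3.18 and 3.28. LUM, a proteoglycan of connective tissue, went from 6.77 and 7.61 to 2.69, 3.30 and 3.59 (-3.997 ± 0.38, adjusted p = 9.82e-05), and SPARC, a matrix glycoprotein, from 8.01 and 7.79 to 5.69, 6.24 and 5.96 (-1.93 ± 0.21, adjusted p = 0.000198). COL1A1 was at 5.35 and 5.37 against 4.80 to 4.92 (-0.52 ± 0.14, adjusted p = 0.0421), and its adjusted p lay between 0.081 and 0.191 without any 1 of the 5 arrays. LUM and SPARC were lower than at day 22, as were the lung genes above. NKX2-1, SFTA3 and HOPX passed as higher in SCGB3A2+ cells than at day 22, but LUM and SPARC did not. The part of mesenchymal cells in the LUM and SPARC differences was not tested. The general epithelial list had 1 higher and 3 lower of 29, with median levels of 8.15 and 7.93. In the interferon list 0 of 31 genes passed (1 higher and 5 lower at an unadjusted p under 0.05) and in the HOX list 0 of 29 (1 and 1). Higher and lower members numbered 4 and 0 of 17 for kidney tubule, 3 and 1 of 23 for glycolysis and hypoxia, 2 and 4 of 14 for trophoblast, 1 and 2 of 13 for thyroid, 1 and 2 of 23 for the retinoid pathway, 1 and 1 of 15 for neural cells and 0 and 2 of 16 for smooth muscle. Over all probe sets 3.75% were higher and 4.15% lower, so the smaller of these counts are not read as results about their lists. Leaving out 1 array at a time gave 1 to 3 higher kidney tubule members, 1 for glycolysis and hypoxia, and 1 to 2 higher and 2 to 3 lower trophoblast members. The same fits gave 0 higher and 1 to 2 lower thyroid genes, 0 to 2 higher and 0 to 1 lower retinoid genes, 0 to 1 higher neural genes and 1 lower smooth muscle gene. Lower general epithelial genes numbered 1 to 2 in those fits and 5 or 6 with array weights, an intensity trend or dim probe sets left out. Higher glycolysis and hypoxia genes numbered 5 with array weights or with only the 5 arrays compared. CD47, on which the progenitors were sorted, was at 8.19 and 7.82 and then at 7.20, 7.23 and 7.38 (-0.73 ± 0.17, adjusted p = 0.0215), and lost its call without day 22 A (0.183), SCGB3A2- A (0.0695) or SCGB3A2- B (0.0716).

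**Figure D5:**
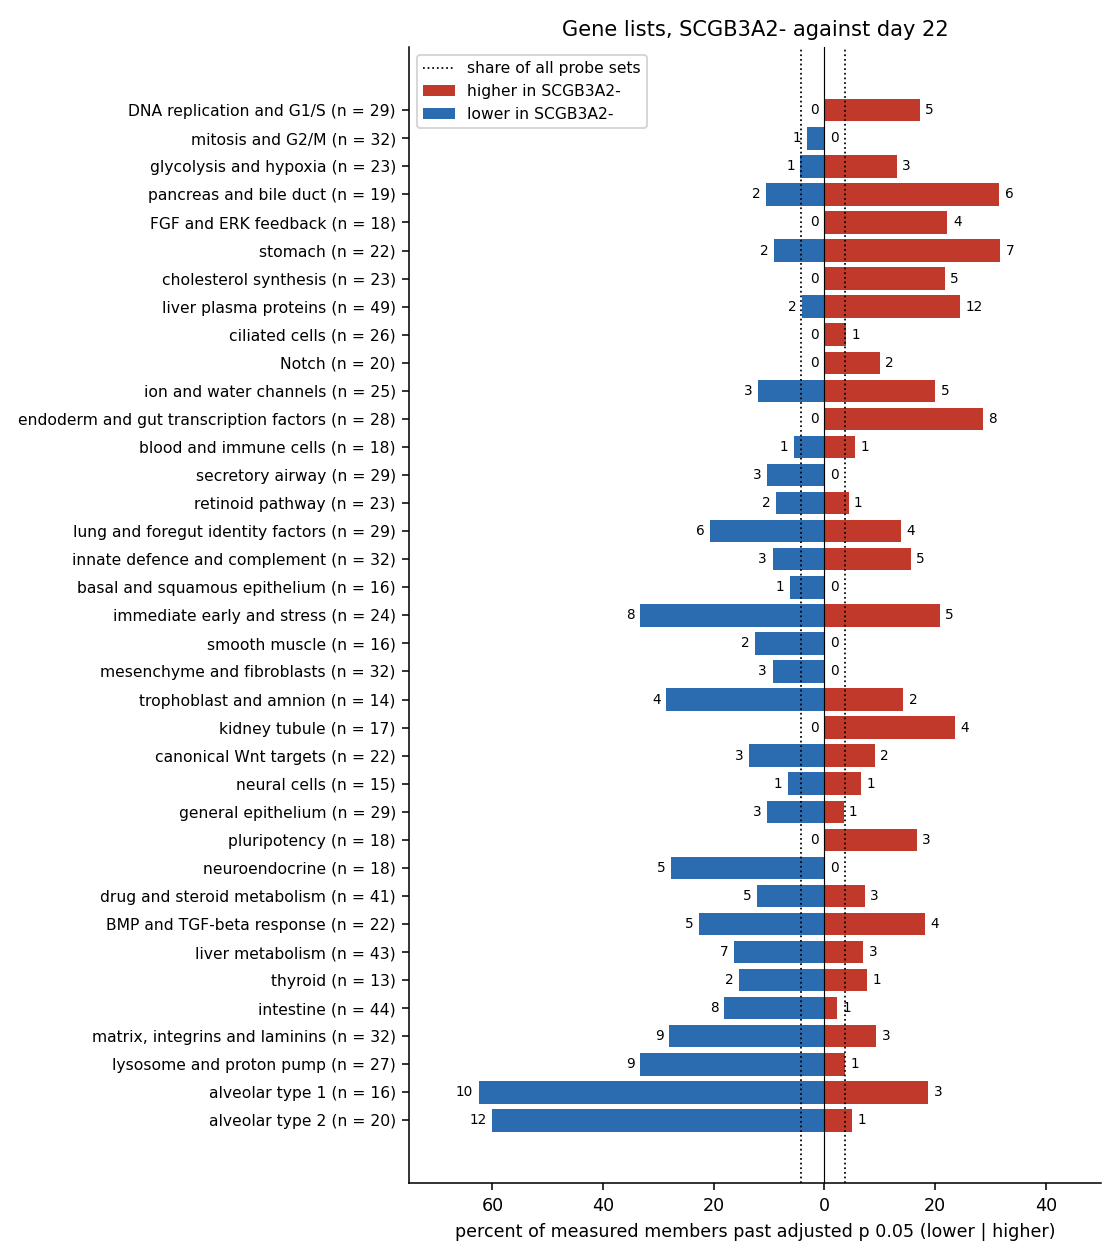
For each gene list with at least 1 call, bars give the percent of its measured members that were higher (right, red) or lower (left, blue) in SCGB3A2- cells than at day 22, with the number of calls at the end of each bar. Dotted lines mark the shares of all probe sets, 3.75% higher and 4.15% lower, and the alveolar type 1 and type 2 lists (10 and 12 lower) reach farthest to the left.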

How the data were processed

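Per the labels' protocols, total RNA (QIAzol, RNeasy) was biotinylated with WT Plus reagents. The table deposited by the authors gives log2 values of 23786 probe sets on 12 arrays. The authors made these log2 values with RMA (affy 1.36.1 in R 2.15.1), per the submitters' processing notes, which subtracts background, gives the arrays a shared distribution and summarises probes. RMA hides any change in total RNA and compresses low signals. Array medians lay between 3.66 and 3.75, and no call above background was possible without probe signals, which were not used here. The annotation release and build behind the probe sets are not given in the sources used here, and 22458 probe sets had 1 symbol in the platform annotation.

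A model with 1 mean per group was fitted to all 12 arrays by lmFit and eBayes of limma 3.58.1 under R 4.3.3 (7 residual degrees of freedom plus 4.43 from the prior). P-values were two-sided, adjusted over all probe sets, and passed at adjusted p under 0.05. Fits without 1 day 22 array leave that group with 1 array, which is then assumed to vary like the other groups. For the day 36 sorts, arrays with the same letter deviated together from their group means (r = 0.104, 0.124 and 0.111), so the letters were taken to pair them. The main fit, which gave the tests between the sorts in the Results, did not use this pairing. Pairing entered only in the replicate block, an alternative fit with terms for the letters.

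Members and the 42 gene lists (1024 entries with a probe set) were chosen with earlier results of these data known, so no list is independent evidence of its direction. Genes were named by a rule: the 12 largest increases and decreases without overlap between arrays, in each list up to 5 members by lowest adjusted p, and a set chosen by name, of which 15 of 17 are reported here. The fitting code was tested on simulated data.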

Additional observations from a re-analysis of the deposited data

Results flagged for a closer look

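Of the 222 named genes, the 27 below passed against day 22 in opposite directions in the 2 sorts of day 36. Their difference between the sorts passed too, which the first 2 conditions all but ensure, so it adds no support. Most named genes were chosen by their difference from day 22, and the share of all probe sets under the same rule was not computed. Both contrasts share the day 22 arrays, and that of SCGB3A2+ cells was not refitted under the alternatives. In that contrast limma's adjusted p was nearest the threshold for NKX2-1 (0.0462) and KRT7 (0.0431). Each value is the log2 difference of SCGB3A2- minus SCGB3A2+ cells, and SCGB3A2, at -6.792, was the gene of the sort.

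Lower than day 22 in SCGB3A2- cells and higher in SCGB3A2+ cells were 19 genes, SCGB3A2 included. Of the lung and alveolar genes among them, NKX2-1 differed by -3.497, SFTA3 by -4.962, HOPX by -3.609 and ADGRF5 by -4.241. The surfactant organelle genes LAMP3 and ABCA3 differed by -4.183 and -3.673. PDPN differed by -3.893 and EMP2 by -2.772, both membrane proteins of type 1 cells. The water channel AQP4 differed by -4.757 and the sodium channel subunit SCNN1A by -1.962. The epithelial genes KRT7, WFDC2 and MAL2 differed by -2.811, -1.979 and -0.944. CYP1B1, a cytochrome P450, differed by -3.976, the growth factor PTN by -5.358 and the retinal reductase DHRS3 by -1.606. The surface protein CD47 differed by -1.457 and the transcription factor RUNX1 by -1.526.

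Higher than day 22 in SCGB3A2- cells and lower in SCGB3A2+ cells were 8 genes. Among the transcription factors of liver and pancreas progenitors, ONECUT2 differed by 3.141, PROX1 by 2.318 and HHEX by 2.079. SALL4 differed by 2.252, the FGF target ETV4 by 2.461 and the ERK-responsive gene IER3 by 1.648. The replication genes MCM3 and CDC6 differed by 1.398 and 1.471.

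Against day 22, the calls of PROX1, WFDC2, IER3, PTN, CD47, SALL4, RUNX1, ETV4, MAL2, MCM3, CDC6, DHRS3 and HHEX in SCGB3A2- cells were each lost when some 1 array was left out, and no cause was tested.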

How the results depend on the processing

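Calls were recomputed under 11 alternatives. Leaving out 1 array at a time gave 376 to 596 higher and 559 to 698 lower probe sets, with fewer arrays in the fit, against 892 and 986, and the other 6 alternatives gave 679 to 1263 and 842 to 1305. With the replicate block the counts were 679 and 842. In day 22 and SCGB3A2- arrays with the same letter, deviations from the group means correlated at 0.126 (A) and 0.114 (C), close to the values between the sorts. The deviations of the 2 day 22 arrays mirror each other, and with 2 shared letters the labels do not establish pairing, so this block is a check only. The test between the sorts gave 4008 to 6374 calls against 5440. With the replicate block it gave 5254, and among the named genes CCN1, CDH5, CTSL, HMGCS1 and SCD lost that call and ABCC2 and EGLN3 gained it, while it changed no other. Of 222 named genes 151 passed and 100 of these passed under all 11 alternatives, or under all that kept their probe set. Losses numbered 39 and 37 when day 22 A or C was dropped, 25, 28 and 31 when SCGB3A2- A, B or C was, and 19 with the replicate block, and 0 named genes reversed. The cause of these losses was not tested. Of the 71 that did not pass, 26 passed under at least 1 alternative. The number of arrays limits the precision, and levels near the low end of the scale may be background.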

Other observations

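The genes named below were chosen after their values were seen, and those that passed did so under all 11 alternatives, except where stated. Of the imprinted genes looked up, 4 were higher in SCGB3A2- cells than at day 22 and 1 was lower. Over all probe sets the shares were 3.75% and 4.15%, but genes picked by their values cannot be weighed against them. IGF2, a fetal growth factor, was at 6.23 and 6.36 at day 22 and at 8.03, 8.23 and 7.97 in SCGB3A2- cells (1.78 ± 0.22, limma's adjusted p = 0.000554). CDKN1C, a growth-restraining cell cycle inhibitor, was at 4.18 and 4.68 and then 5.69, 6.55 and 6.04 (1.66 ± 0.26, adjusted p = 0.00257). KCNQ1OT1, the antisense RNA that silences CDKN1C on the paternal chromosome, was at 3.91 and 4.28 and then 5.50, 5.71 and 5.41 (1.44 ± 0.16, adjusted p = 0.000271). DLK1, imprinted at another locus, had the largest increase described above. All 4 were also higher than in SCGB3A2+ cells, with limma's adjusted p from 0.000168 for IGF2 to 0.00403 for CDKN1C. PEG10, an imprinted gene of placental growth, was lower, at 7.04, 7.91 and 7.59 against 8.55 and 8.24 (-0.88 ± 0.24, adjusted p = 0.0454), a call that changed under 6 alternatives. H19 (-0.19, adjusted p = 0.517), MEST (0.26, adjusted p = 0.494), PEG3 (0.46, adjusted p = 0.567), PLAGL1 (0.77, adjusted p = 0.151), GRB10 (-0.21, adjusted p = 0.629) and SGCE (0.11, adjusted p = 0.751) did not pass. Beyond these genes, the imprinted transcripts IGF2-AS, SNORD115-27 and SNORD116-21 passed as higher, with calls that changed under 4, 7 and 1 alternatives. No list of imprinted genes was tested, so nothing is said of the class as a whole.

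Single receptors, ligands and other genes follow. SCTR, the secretin receptor of pancreatic and bile ducts, was at 2.45 and 2.29 and then 4.96, 4.73 and 4.32 (2.29 ± 0.21, limma's adjusted p = 6e-05). The endothelin receptor EDNRB was at 3.41 and 3.88 and then 5.48, 5.33 and 5.90 (1.93 ± 0.22, adjusted p = 0.000263), and its ligand EDN3 at 3.33 and 3.61 and then 5.81, 5.79 and 5.38 (2.19 ± 0.35, adjusted p = 0.00259). The other endothelins were lower, EDN1 at 6.07, 4.99 and 5.15 against 7.43 and 7.24 (-1.94 ± 0.27, adjusted p = 0.00106) and EDN2 at 4.07, 4.18 and 4.07 against 4.62 and 4.88 (-0.64 ± 0.18, adjusted p = 0.0495), the latter a call that changed under 8 alternatives. FRZB, a secreted Wnt inhibitor, was at 4.33 and 4.18 and then 7.002, 6.85 and 7.15 (2.75 ± 0.28, adjusted p = 0.000145), and the sorts did not pass as different (adjusted p = 0.825). Lower were LMO3, a transcriptional cofactor, at 5.43, 5.39 and 5.28 against 7.91 and 7.40 (-2.29 ± 0.20, adjusted p = 4.42e-05), and SFTA2, a surfactant-associated gene, at 4.83, 4.62 and 4.80 against 6.82 and 6.50 (-1.91 ± 0.22, adjusted p = 0.000338). MSN, which links membrane proteins such as PDPN to actin, was at 5.99, 5.96 and 5.44 against 8.91 and 8.71 (-3.02 ± 0.20, adjusted p = 9.65e-06).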
